A study of Mus musculus with 18 samples.

Results

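The natriuretic peptide system of the embryonic ventricle was followed through 7 genes, chosen by name: the ligand genes Nppa, Nppb and Nppc, the receptor genes Npr1, Npr2 and Npr3, and the protease gene Corin. They are 7 of the 28563 genes to which transcripts were tied, and 7 of 7 passed the filter on low counts. RNA-seq of polyA RNA covered 18 libraries of mouse heart ventricles at E14.5, in a study of the Iroquois transcription factors Irx3 and Irx4. DKO libraries (6) are labelled Irx3KO_Irx4KO, knockout for both genes, Irx3KO (3) and Irx4KO (3) are labelled knockout for 1 gene, dHet (3) is labelled Irx3het_Irx4het, heterozygous for both, and WT (3) is wild type. The labels do not name the alleles, the strain, the sex of the embryos or whether ventricles were pooled, and do not tie each library to its own embryo. The spread between libraries behind every p-value may therefore be technical.

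Natriuretic peptides are hormones of the heart and vessel wall. Nppa encodes atrial natriuretic peptide, which in the embryo marks the working myocardium of the atria and the trabeculae of the ventricle, Nppb encodes B-type natriuretic peptide, and Nppc encodes C-type natriuretic peptide. Corin is a protease on the surface of cardiomyocytes that cuts the precursor of atrial natriuretic peptide. Npr1 is the receptor of the atrial and B-type peptides and Npr2 that of the C-type peptide, and both make cyclic GMP inside the cell. Npr3 removes all of these peptides from the surroundings of the cell, and in the embryonic heart it is a gene of the endocardium.

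Nppa and Nppb lie side by side on chromosome 4, with 13516 bases between the end of Nppb and the start of Nppa in GRCm38. The 250 bases before the RefSeq start of both are shown, because the factors that act on this pair were measured in the same libraries, and those of Corin because Corin had the smallest adjusted p of the 7 genes. The RefSeq sequences (GRCm38.p6) are written 5′ to 3′ on the gene's strand, and they are chr4:148000472-148000721 on the plus strand for Nppa, chr4:147985650-147985899 on the plus strand for Nppb and chr5:72504541-72504790 on the minus strand for Corin. Capitals mark matches, on either strand, of AGGTGTGA (bound by T-box factors such as Tbx5 and Tbx2), AAGTG (the core bound by Nkx2-5), GATAA (bound by GATA factors), AGATAG (another form of the GATA motif) and CATTCC (bound by TEAD factors).
Nppa: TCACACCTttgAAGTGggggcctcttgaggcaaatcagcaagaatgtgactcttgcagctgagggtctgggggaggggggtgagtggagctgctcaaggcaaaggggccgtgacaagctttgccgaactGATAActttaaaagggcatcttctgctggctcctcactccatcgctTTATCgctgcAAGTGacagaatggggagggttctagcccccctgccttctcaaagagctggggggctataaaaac
Nppb: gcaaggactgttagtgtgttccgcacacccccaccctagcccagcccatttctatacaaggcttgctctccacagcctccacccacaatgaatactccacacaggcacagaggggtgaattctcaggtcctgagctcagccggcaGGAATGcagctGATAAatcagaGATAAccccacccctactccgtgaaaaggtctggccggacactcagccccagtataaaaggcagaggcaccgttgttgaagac
Corin: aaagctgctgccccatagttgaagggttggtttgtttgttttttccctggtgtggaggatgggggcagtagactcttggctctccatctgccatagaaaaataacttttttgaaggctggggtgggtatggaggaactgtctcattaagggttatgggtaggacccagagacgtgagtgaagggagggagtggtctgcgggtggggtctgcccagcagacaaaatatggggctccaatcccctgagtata
Positions count back from the start, with the base before it as -1, and give the leftmost base of a match. The Nppa sequence held AGGTGTGA at -250 (minus strand), AAGTG at -239 and -65. It also held GATAA at -121 and, on the minus strand, at -75. The Nppb sequence held GATAA at -94 and -83, the second of them part of AGATAA at -84, and CATTCC at -105 on the minus strand. The Corin sequence held none of these letters. A shorter T-box core, GGTGTG, was also searched but is not marked. It was at -249 in Nppa and -227 in Nppb, both on the minus strand, and at -202 in Corin. Of all promoters of this length, 16.3% held it. Among 32851 promoters of this length, 1.1% held AGGTGTGA, 40.7% held AAGTG, 22.6% held GATAA, 9.99% held AGATAA, 7.7% held AGATAG and 12.6% held CATTCC. The Iroquois motif ACANNTGT, in 6.3% of promoters, was in none of the 7 windows, which says only that these letters are not there. GATAA was added to the search after the sequences were seen.

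The libraries held between 26721576 and 45946741 estimated counts. They formed 2 technical sets, WT with DKO 5, 7 and 10 (set 1) and the other 12 libraries (set 2), and genotypes were compared only within a set. The sets are not in the labels. Across genes, Spearman's rho of transcript length with the log2 difference of a library from the mean library was -0.409 to -0.214 in set 1 and 0.031 to 0.331 in set 2. In DKO of set 1 against DKO of set 2, 18.8% of genes were called and 0 of the 7 members, although Npr2 was called without DKO 5 (log2 fold change -0.28, adjusted p = 0.0355 in edgeR). Irx3 was at 2.58 to 4.33 CPM in the 9 Irx3KO and DKO libraries, 12.8 to 13.3 CPM in dHet, 22.1 to 26.4 CPM in Irx4KO and 22.1 to 28.5 CPM in WT. Irx4 RNA was higher in libraries labelled DKO (218 to 282 CPM in set 1) than in WT (78.7 to 126 CPM), so its level does not check the Irx4 labels. Ventricular markers (Myl2, Myl3, Irx4, Pln and Mybpc3) summed to 9796 to 12440 CPM and atrial markers to 1443 to 2843 CPM over the 18 libraries. Y-linked genes were low in DKO 4, dHet 2 and WT 3.

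Per length, Nppa was by far the most abundant of the 7 RNAs. Averaged over the 18 libraries it stood at 2135 ± 508 TPM (SD; TPM scales estimated counts by length and library total), place 31 among all genes. Nppb followed at 163 ± 51.9 TPM, Corin at 34.4 ± 5.44 TPM, Npr3 at 31.1 ± 4.36 TPM, Npr2 at 24.0 ± 3.30 TPM, Npr1 at 16.1 ± 1.90 TPM and Nppc at 0.380 ± 0.181 TPM. Each gene was above the next in this order in 17 or 18 of 18 libraries, except that Corin was above Npr3 in 11 of 18, so these neighbours did not separate. Nppa, Nppb, Nppc and Npr3 were each counted on 1 transcript. Of the Npr1 and Npr2 TPM, 57.6% and 55.3% came from transcripts annotated as protein-coding (9.26 ± 1.52 and 13.3 ± 1.46 TPM), and the rest came from retained introns and other non-coding forms. TPM divides by length, so short forms weigh more in it than in counts. By counts the coding transcript Npr1-201 held on average 90.8% of Npr1. The coding transcripts Npr2-201 and Npr2-205 held 65.8% and 10.1% of the Npr2 counts.

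No member passed the test in any of 10 comparisons. All 7 were tested with edgeR's quasi-likelihood test with adjustment over the 16607 genes that passed the filter, at a threshold of 0.05. Of these 70 member tests 0 passed, with 4 at an unadjusted p under 0.05 and 0.275 as the smallest adjusted p. DESeq2 called 0 and limma-voom 1 (Corin, below). Over all genes, 1.44% were called in DKO against WT, 0.379% in DKO against Irx3KO, 0.0241% in DKO against Irx4KO and 0.0903% in DKO against dHet. The share was 0.289% in Irx3KO against Irx4KO, 0.00602% in Irx3KO against dHet and 0.012% in Irx4KO against dHet. In the joint comparisons of set 2 it was 0.0241% for Irx3 null (DKO and Irx3KO) against Irx3-bearing libraries, 0.813% for Irx4 null (DKO and Irx4KO) against Irx4-bearing libraries and 0.0% for the Irx3 by Irx4 interaction (474 genes at an unadjusted p under 0.05, and 7 called by DESeq2). Irx3-bearing libraries are Irx4KO and dHet, and Irx4-bearing libraries are Irx3KO and dHet. Both thus hold dHet, heterozygous for both genes, and no WT. The interaction is DKO minus Irx3KO, less Irx4KO minus dHet, so dHet stands in the place of WT. Beside the low shares above, 0 of 7 is not a result about the members. The median log2 fold change of the members was 0.26 in DKO against WT, beside 0.01 for all genes tested, and lay between -0.02 and 0.12 in the other 9.

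**Figure D1:**
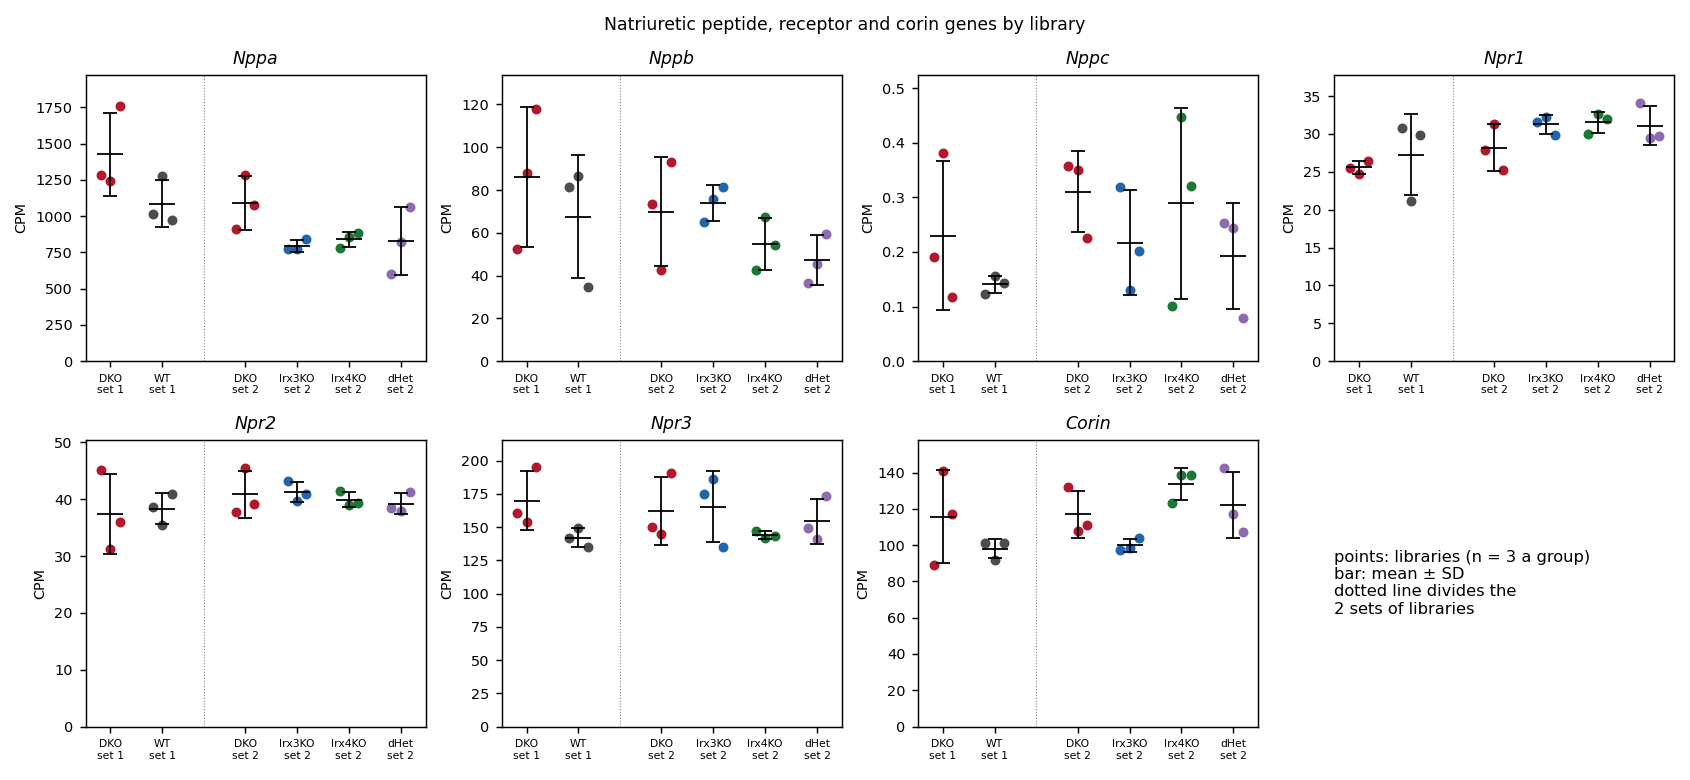
Level of each member (CPM, estimated counts scaled to library size, linear axes from 0) in every library, by group. Points are libraries, bars are the mean ± SD (n = 3), and a dotted line divides the 2 sets. The DKO points for Nppa lie above those of Irx3KO and Irx4KO, and no member separates DKO from every other genotype in both sets.

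Nppa had the highest mean in DKO in both sets, but the difference did not pass. In set 1 it was at 1284, 1240 and 1758 CPM in DKO 5, 7 and 10, against 1012, 1274 and 974 CPM in WT 1, 2 and 3. DKO 7 was below WT 2, so the groups overlapped. In set 2 it was at 910, 1287 and 1076 CPM in DKO 2, 3 and 4, at 771, 774 and 846 CPM in Irx3KO 1, 2 and 4, at 780, 854 and 885 CPM in Irx4KO 2, 3 and 4 and at 602, 823 and 1066 CPM in dHet 2, 3 and 4. All 3 DKO libraries were above all 6 single-knockout libraries, while dHet 4 fell inside the DKO range.

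The fitted log2 fold change of Nppa was 0.39 ± 0.19 (SE, 3 against 3 libraries) in DKO against WT (adjusted p = 0.37), a ratio of 1.31 with a 95% interval of 0.997 to 1.73. It was 0.45 ± 0.19 in DKO against Irx3KO (adjusted p = 0.528), 0.38 ± 0.19 in DKO against Irx4KO (adjusted p = 0.899) and 0.39 ± 0.19 in DKO against dHet (adjusted p = 0.511). The last 3 of these share the DKO libraries of set 2 and are not separate observations. Among the other genotypes of set 2 the values lay near 0, at -0.08 for Irx3KO against Irx4KO, -0.06 for Irx3KO against dHet and 0.02 for Irx4KO against dHet, each with an SE of 0.19. The Irx3 by Irx4 interaction, with dHet in the place of WT, was 0.44 ± 0.26 (adjusted p = 1.0).

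A comparison chosen after the data were seen averaged DKO minus WT in set 1 and DKO minus the other 3 genotypes in set 2. It called 2.84% of genes and 0 of the 7 members with edgeR, with 1 member, Nppa, at an unadjusted p under 0.05. Nppa stood at 0.40 ± 0.12 (adjusted p = 0.0896). It was called by DESeq2 (0.40, adjusted p = 0.0109) and by edgeR without dHet 4 (0.44, adjusted p = 0.0339). Without each other library in turn the adjusted p did not pass, up to 0.214, and over all 26 alternatives the value lay between 0.31 and 0.47.

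Some atrial markers were also higher in DKO. The summed level of 8 such genes (Myl7, Myl4, Sln, Stard10, Nr2f1, Nr2f2, Tbx5 and Fgf12, none at 0 in any group) was 2589 to 2843 CPM in DKO and 1589 to 2095 CPM in WT in set 1. In set 2 it was 1902 to 2193 CPM in DKO, 1661 to 1681 CPM in Irx3KO, 1741 to 1865 CPM in Irx4KO and 1443 to 1671 CPM in dHet. Of the 8, Stard10, Myl7, Tbx5 and Myl4 rose in DKO against WT, beside 1.44% of all genes called. These calls were lost without WT 1 for Myl7, Tbx5 and Myl4 and without WT 3 for Myl4 (adjusted p up to 0.0727). For all 4 they were lost in a fit of set 1 alone (up to 0.356), and for Stard10, Myl7 and Myl4 also with no set term. By contrast 0 of 8 were called by edgeR in DKO against Irx3KO, Irx4KO or dHet. In these 3 comparisons 4, 2 and 4 of the 8 had an unadjusted p under 0.05, DESeq2 called 2, 0 and 3, and limma-voom called 3, 0 and 1. In Irx4 null against Irx4-bearing libraries edgeR called Stard10 (0.67, adjusted p = 0.0197). That call was lost without Irx3KO 1, Irx3KO 4, Irx4KO 3, dHet 2 or dHet 3 (up to 0.0649). In the comparison over both sets, chosen after the data were seen, edgeR called Stard10, Myl7, Myl4 and Tbx5. Those calls held under all 8 other settings and without each library in turn. That comparison uses the same libraries as the calls above and is not a separate observation. Within 1 genotype, in DKO of set 1 against DKO of set 2, edgeR also called 3 of the 8, beside 18.8% of all genes. These were Myl4 (0.33, adjusted p = 0.0107), Stard10 (0.61, adjusted p = 0.0249) and Myl7 (0.51, adjusted p = 0.0355), each lost in some alternatives. In Irx4KO against dHet the sums did not overlap, with a median of 0.18 over the 8 genes, 3 at an unadjusted p under 0.05 and 0 called by any of the 3 tools, while Nppa stood at 0.02. The part of these genes in the Nppa difference was not tested, and in dissected ventricles more cells of a type and more RNA per cell cannot be told apart.

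Trabecular markers, genes of the layer that makes most ventricular Nppa, were mostly lower in DKO than in WT and Irx3KO, the other way from Nppa, although few were called. Of the 7 (Bmp10, Gja5, Cited1, Sema3a, Slit2, Irx3 and Cpne5, none at 0 in any group) Irx3 is itself a targeted gene. The sums were 418 to 632 CPM in DKO and 529 to 635 CPM in WT, which overlapped. In set 2 they were 374 to 514 CPM in DKO, 509.5 to 628 CPM in Irx3KO, 428 to 444 CPM in Irx4KO and 441 to 539 CPM in dHet. In DKO against WT the median over the 7 was -0.39 (log2), with 5 at an unadjusted p under 0.05, of which edgeR called Irx3 alone, DESeq2 2 and limma-voom 1. Without Irx3, an alternative chosen after the data were seen, the median was -0.37, and 5 of 6 were lower. In DKO against Irx3KO the median over the 7 was -0.49, again with 5 at an unadjusted p under 0.05, and -0.58 without Irx3. There edgeR called Slit2, a guidance ligand (-0.95 ± 0.18, adjusted p = 0.0403), DESeq2 called 2 and limma-voom 3. The Slit2 call held without DKO 5, DKO 7, DKO 10, WT 2 or WT 3 and was lost without each of the other 13 libraries (up to 0.208) and under 5 of 12 other settings. The median without Irx3 was 0.13 in DKO against Irx4KO and -0.24 in DKO against dHet. In Irx4 null against Irx4-bearing libraries it was -0.49, and 5 of 6 were lower. Of these 6 edgeR called 1, DESeq2 4 and limma-voom 3. The edgeR call was Slit2 (-0.73 ± 0.13, adjusted p = 0.0175). It held under all 11 other settings and was lost without Irx4KO 3 or Irx4KO 4 (up to 0.0518). The part of these genes in the values of Nppa was not tested.

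**Figure D2:**
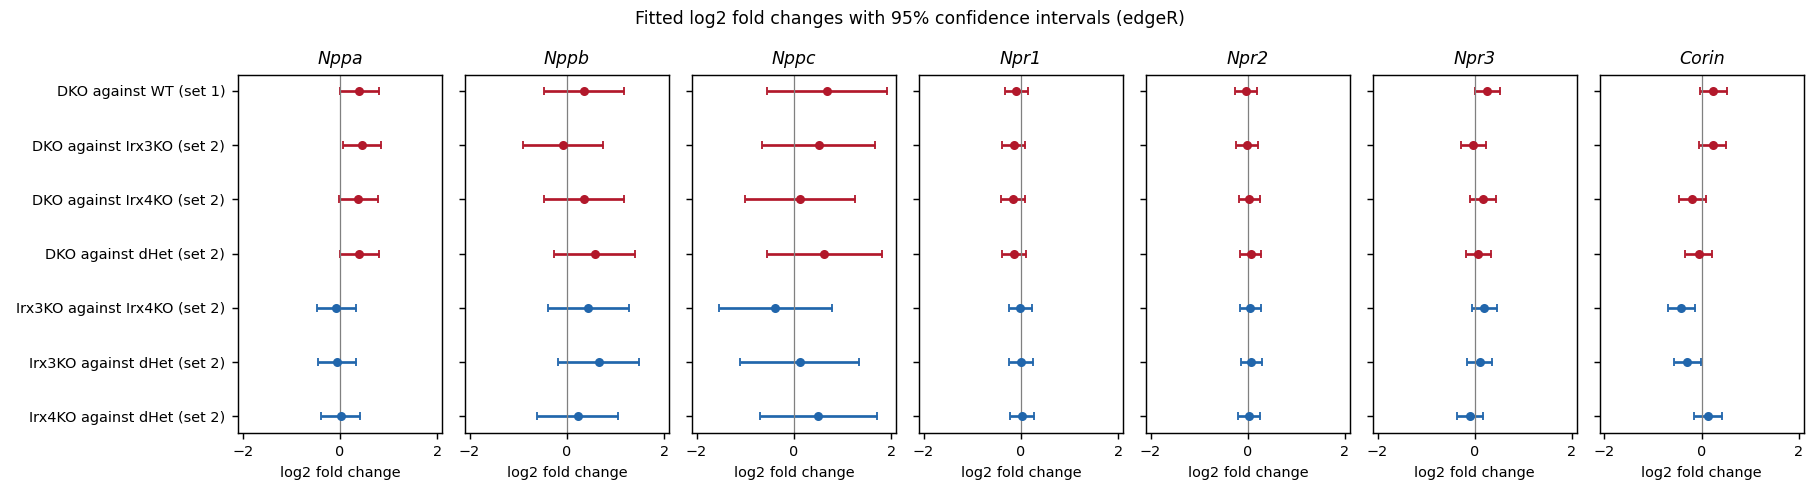
Fitted log2 fold change of each member (x axis, linear) in 7 comparisons (y axis), with 95% confidence intervals from the fit across all genes. Red marks DKO as the first-named group and blue a comparison without DKO. The intervals are widest for Nppb and Nppc and narrowest for Npr1 and Npr2.

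Nppb, the neighbour of Nppa, differed widely within genotypes and passed in no comparison. It was at 52.5, 87.8 and 118 CPM in DKO 5, 7 and 10, against 81.2, 86.8 and 34.8 CPM in WT 1, 2 and 3. In set 2 it was at 73.5, 42.6 and 93.2 CPM in DKO 2, 3 and 4, at 64.8, 75.9 and 81.4 CPM in Irx3KO, at 42.8, 67.4 and 54.2 CPM in Irx4KO and at 36.4, 45.7 and 59.7 CPM in dHet. The DKO libraries alone spanned 42.6 to 118 CPM. All 3 Irx3KO libraries were above all 3 dHet libraries, with a log2 fold change of 0.65 ± 0.39 (adjusted p = 1.0), and it was 0.35 ± 0.38 in DKO against WT (adjusted p = 0.75) and 0.57 ± 0.39 in DKO against dHet (adjusted p = 0.681). Its smallest p came from Irx3 null against Irx3-bearing libraries, at 71.9 ± 17.2 CPM and 51.0 ± 11.5 CPM (SD, 6 libraries each), with a log2 fold change of 0.50 ± 0.27 (unadjusted p = 0.0887, adjusted p = 0.728 in edgeR). This value stayed between 0.37 and 0.63 in all 29 alternatives and was called in 0 of them.

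The spread of Nppb within groups was large for its level. Its SD on the log2 scale, pooled over the 6 groups, was 0.50, and 99.5% of the 4669 genes within 2-fold of its mean level had a smaller one. For Nppa the SD was 0.25 and the share 92.7% of 179 genes, for Corin 0.18 and 91.7%, for Npr3 0.17 and 90.4%, for Npr1 0.15 and 74.8%, and for Npr2 0.14 and 72.0%. With this spread the intervals of Nppb in the 10 comparisons ran from -1.48 to 1.49 (log2). The low end is that of the Irx3 by Irx4 interaction. In the comparisons between groups the lowest bound was -0.91 (DKO against Irx3KO). Rises past 2-fold are therefore inside some of these intervals and falls past 2-fold inside none. Over the 18 libraries, after each set's mean was taken off, Nppa and Nppb had a Pearson correlation of 0.42 and a Spearman correlation of 0.37, given as a description over libraries that share genotypes.

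**Figure D3:**
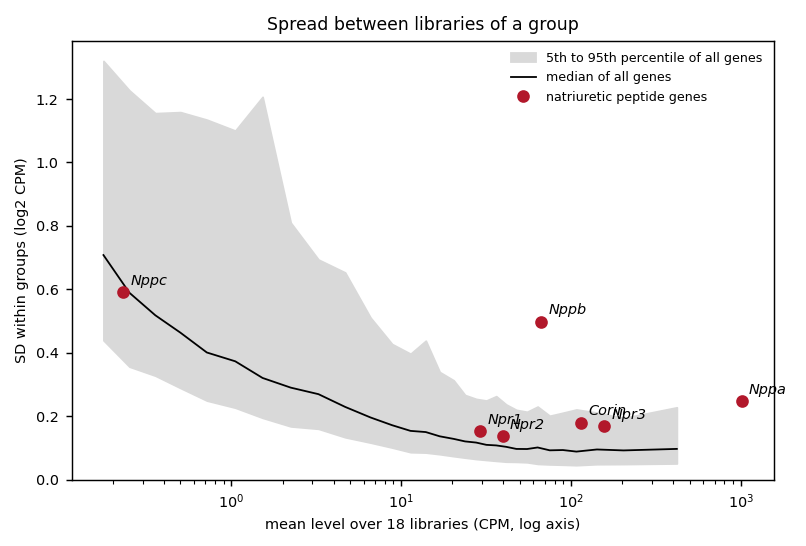
SD of log2 CPM within groups (y axis) against mean level over the 18 libraries (x axis, CPM, log scale). The grey band holds the 5th to 95th percentile and the line the median of all genes tested, in bins of level, and it ends below the level of Nppa. Nppb, at 0.50, is the member far above the band.

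Nppc was close to the limit of detection. It had 2 to 16 estimated counts per library, or 0.0801 to 0.446 CPM, with 5 to 14 counts in DKO and 5 or 6 in WT in set 1. Where dHet 4 had 2 counts, dHet 2 had 10. All groups overlapped, and the intervals of its log2 fold changes ran from -1.74 to 1.91, so changes of over 2-fold either way lie inside some of them at this depth.

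Corin separated the single knockouts of set 2, but the difference did not pass. It was at 97.2, 98.4 and 104 CPM in Irx3KO 1, 2 and 4, against 123.3, 138.5 and 138.9 CPM in Irx4KO 2, 3 and 4, and at 132, 108 and 111 CPM in DKO 2, 3 and 4 and 142, 117 and 107 CPM in dHet 2, 3 and 4. The 3 Irx3KO libraries were the lowest of the 12. In set 1 it was at 89.2, 141 and 117 CPM in DKO 5, 7 and 10, against 101, 92.0 and 101 CPM in WT, and the groups overlapped. The log2 fold change in Irx3KO against Irx4KO was -0.42 ± 0.13 (unadjusted p = 0.00596, adjusted p = 0.275, edgeR). The means were 99.9 ± 3.69 CPM in Irx3KO and 134 ± 8.86 CPM in Irx4KO (SD, 3 libraries each).

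This value kept its size, between -0.47 and -0.39, in all 30 alternatives, but its call did not rest on size alone. Corin was called by limma-voom (-0.44, adjusted p = 0.00608) and by edgeR on these 6 libraries alone (-0.41, adjusted p = 0.00252), and not in the other 28, with an adjusted p between 0.0821 and 0.655 when a library was left out. In Irx3KO against dHet it was -0.29 ± 0.13 (adjusted p = 1.0), and in DKO against Irx3KO, with all 3 DKO libraries higher, 0.23 ± 0.13 (adjusted p = 0.749). Irx3 null against Irx3-bearing libraries gave -0.24 ± 0.09 (adjusted p = 0.617). Cardiomyocyte markers summed to 21730 to 24040 CPM in Irx3KO and 21570 to 24010 CPM in Irx4KO, nearly the same range. Sums of markers of several other cell types did separate these groups. Cushion and fibroblast markers, 8 genes, summed to 4925 to 5132 CPM in Irx3KO and 5447 to 6530 CPM in Irx4KO (4 at an unadjusted p under 0.05, 0 called by edgeR, 0 by DESeq2 and 3 by limma-voom). Trabecular markers were the other way, at 509.5 to 628 CPM in Irx3KO and 428 to 444 CPM in Irx4KO. All 6 without Irx3 were higher in Irx3KO, with a median of 0.71, and 4 had an unadjusted p under 0.05 (0 called by edgeR, 3 by DESeq2 and 4 by limma-voom). Sums of atrial and epicardial markers were lower, and those of macrophage and smooth muscle markers higher, in all 3 Irx3KO libraries than in all 3 Irx4KO libraries. The median log2 fold changes were -0.09 for atrial, -0.23 for epicardial, -0.07 for macrophage and -0.05 for smooth muscle markers. For macrophage and smooth muscle markers the median thus went the other way from the sum. None of the lists holds a called gene here in edgeR apart from Irx3, and their part in the Corin difference was not tested.

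Transcript Corin-202 held 72.1% to 86.7% and Corin-201 13.25% to 27.8% of the Corin counts, and the groups overlapped in both shares.

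Pcsk6, which encodes a convertase that activates corin, fell in DKO against WT and in Irx4 null against Irx4-bearing libraries. It was not a member but belonged to a list of genes that process the peptides or act in the cyclic GMP pathway. It was at 20.6, 24.3 and 22.8 CPM in DKO 5, 7 and 10, against 33.7, 39.5 and 30.3 CPM in WT 1, 2 and 3. The log2 fold change in DKO against WT was -0.61 ± 0.12 (3 against 3 libraries, adjusted p = 0.0158), and the groups did not overlap. In set 2 it was at 23.3, 20.97 and 24.1 CPM in DKO, at 31.9, 25.9 and 35.8 CPM in Irx3KO, at 26.1, 21.2 and 22.0 CPM in Irx4KO and at 27.5, 29.2 and 29.4 CPM in dHet. Irx4 null against Irx4-bearing libraries gave -0.38 ± 0.08 (6 against 6, adjusted p = 0.0396), and Irx4KO 2 was above Irx3KO 2.

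The call of Pcsk6 in DKO against WT was lost without WT 1 (adjusted p = 0.0512), without WT 2 (0.0617), with limma-voom (0.0794) and in a fit of set 1 alone (0.139), where 16 genes in all were called. That in Irx4 null libraries was lost without 11 of the 18 libraries left out 1 at a time (DKO 2, 3 and 4, Irx3KO 1 and 4, Irx4KO 3 and 4, dHet 2, 3 and 4, and WT 1), with adjusted p-values of up to 0.118, and with counts rebuilt from TPM (0.0502). In the comparison over both sets, chosen after the data were seen, Pcsk6 was at -0.44 ± 0.08 (adjusted p = 0.00453) and was called in all 26 alternatives. That comparison uses the same libraries as the calls above and is not a separate observation. Furin, which cuts the B-type and C-type precursors, passed in no comparison, at 138 to 153 CPM in DKO and 131 to 146 CPM in WT.

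**Figure D4:**
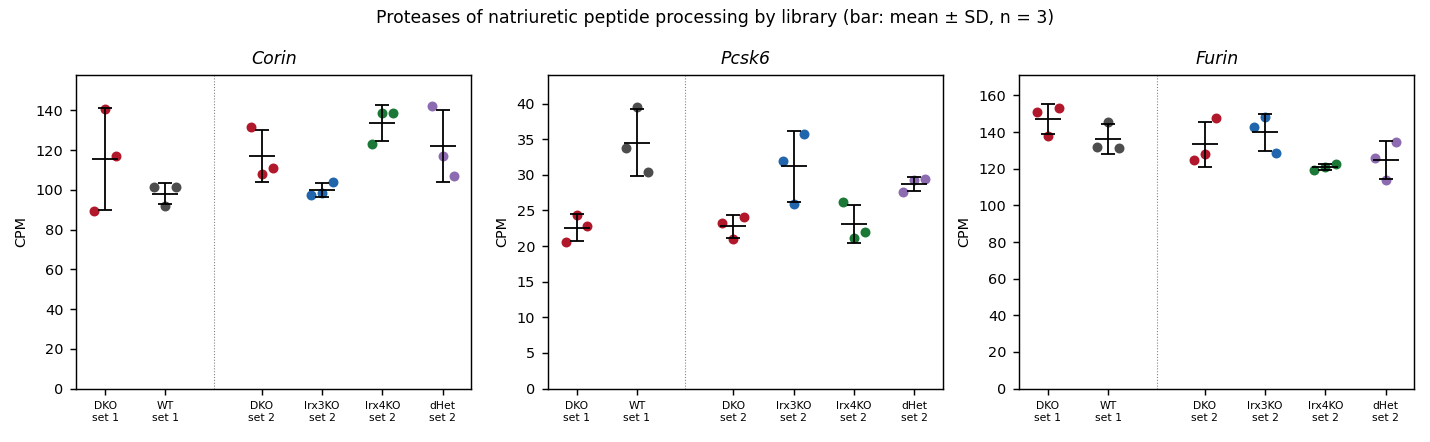
Levels of Corin, of Pcsk6, which activates corin, and of Furin (CPM, linear axes from 0) in every library, by group. Points are libraries and bars the mean ± SD (n = 3). Pcsk6 is below its WT libraries in all DKO libraries of set 1, Corin is low in Irx3KO, and Furin overlaps between DKO and WT.

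None of the receptors passed in any comparison. Npr1 was at 25.6, 24.7 and 26.5 CPM in DKO 5, 7 and 10, against 30.8, 21.1 and 29.9 CPM in WT. In set 2 it was at 25.2 to 31.4 CPM in DKO, 29.9 to 32.3 CPM in Irx3KO, 29.9 to 32.7 CPM in Irx4KO and 29.5 to 34.1 CPM in dHet. All groups overlapped. The log2 fold changes of Npr1 in the main fit lay between -0.17 and 0.02 in the 10 comparisons, with intervals from -0.51 to 0.26.

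Npr2 was at 45.1, 31.2 and 36.0 CPM in DKO 5, 7 and 10, against 38.7, 35.4 and 40.9 CPM in WT, and at 37.8 to 45.6 CPM in DKO, 39.7 to 43.2 CPM in Irx3KO, 38.9 to 41.4 CPM in Irx4KO and 38.0 to 41.3 CPM in dHet in set 2. Its log2 fold changes lay between -0.04 and 0.07, with intervals from -0.35 to 0.29, the narrowest of the members. Its transcripts differed more than its sum. Npr2-205 held 17.8% to 25.5% of the Npr2 counts in DKO and 9.93% to 15.5% in WT in set 1, without overlap, but 8.16% to 9.49% in DKO, 0.0% to 7.73% in Irx3KO, 6.52% to 14.6% in Irx4KO and 0.0% to 7.69% in dHet in set 2. These shares are estimates that divide reads between overlapping transcripts and were not tested.

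Npr3, the clearance receptor, was at 161, 154 and 195 CPM in DKO 5, 7 and 10, against 142, 149 and 135 CPM in WT. All 3 DKO libraries were above all 3 WT libraries, with a log2 fold change of 0.26 ± 0.12 (adjusted p = 0.373). In set 2 the groups overlapped, at 150, 145 and 191 CPM in DKO, 175, 186 and 135 CPM in Irx3KO, 147, 142 and 143 CPM in Irx4KO and 149, 141 and 173 CPM in dHet, and DKO against Irx3KO gave -0.03 ± 0.12 (adjusted p = 0.985). Irx4KO had the tightest values and Irx3KO the widest. Endothelial and endocardial markers, 9 genes none of which was at 0, summed to 1127 to 1239 CPM in DKO and 1159 to 1251 CPM in WT, and 0 of 9 were called by edgeR in any of the 10 comparisons (10 tests at an unadjusted p under 0.05, with 1 call each by DESeq2 and limma-voom). Over all genes the share called in these comparisons was 0.0% to 1.44%.

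In the list of processing and cyclic GMP genes, 18 of 22 names were tested (3 names had no match and Ostn was too low). In DKO against WT 0 rose and 3 fell, with a median of -0.08 beside 0.01 for all genes, of which 1.44% were called. Besides Pcsk6 these were Pln and Pde1c. Pln, the inhibitor of the calcium pump and a target of the cyclic GMP kinase, was at 1365 to 1403 CPM in DKO and 1725 to 2057 CPM in WT (-0.43 ± 0.07, adjusted p = 0.00495), and it also fell in DKO against Irx3KO (-0.40, adjusted p = 0.0156) and against dHet (-0.42, adjusted p = 0.0219). Its call against WT was lost in a fit of set 1 alone (adjusted p = 0.175), that against Irx3KO without DKO 3, DKO 4, Irx3KO 2 or Irx3KO 4 (up to 0.119), and that against dHet without DKO 3, DKO 4, dHet 2 or dHet 3 (up to 0.183) or in a fit of these groups alone (0.0697). Pde1c, a phosphodiesterase of cyclic nucleotides, was at 5.66 to 11.1 CPM in DKO and 18.1 to 27.0 CPM in WT (-1.24 ± 0.28, adjusted p = 0.0403). That call was lost without 11 of the 18 libraries, namely DKO 2, 5 and 7, Irx3KO 1, Irx4KO 2, dHet 2, 3 and 4, and WT 1, 2 and 3, with adjusted p-values of up to 0.173, and under 5 of 11 other settings (up to 0.175). In Irx4 null against Irx4-bearing libraries edgeR called Pln and Pcsk6. It called no other gene of the list in the 10 comparisons, with 7 calls in all, while DESeq2 made 11 and limma-voom 10. In Irx3KO against Irx4KO edgeR called 0 of the list, with 6 at an unadjusted p under 0.05, DESeq2 2 and limma-voom 3. The soluble guanylyl cyclase genes Gucy1a1 (156 ± 9.82 CPM in DKO and 138 ± 18.1 CPM in WT, SD, n = 3 each) and Gucy1b1 (105 ± 19.96 CPM in DKO and 105 ± 6.08 CPM in WT) were not called by edgeR.

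Of 20 transcription factors known to act on Nppa or Nppb, 3 rose and 0 fell in DKO against WT, with a median of 0.06 beside 0.01 for all genes. Over all genes 1.44% were called there, and the list was chosen with earlier results of these data known. These are calls by edgeR, with 7 at an unadjusted p under 0.05, and DESeq2 called 5 and limma-voom 2. The 3 act in opposite directions on Nppa. Tbx2, a repressor of Nppa in the atrioventricular canal, was at 40.2 to 52.1 CPM in DKO and 21.4 to 26.5 CPM in WT (0.96 ± 0.14, adjusted p = 0.00231). Tbx5, an activator, was at 60.8 to 77.6 CPM in DKO and 51.4 to 54.5 CPM in WT (0.43 ± 0.08, adjusted p = 0.0118), a call lost without WT 1 (0.0629). Gata6 was at 186 to 204 CPM in DKO and 157 to 176 CPM in WT (0.23 ± 0.05, adjusted p = 0.0439). Its call held without DKO 5, DKO 10 or dHet 3 and was lost without each of the other 15 libraries (up to 0.154) and under 5 of 11 other settings. In a fit of set 1 alone Tbx2 (0.0511), Tbx5 (0.242) and Gata6 (0.54) did not pass.

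In set 2, Tbx2 rose in DKO against Irx3KO (0.85, adjusted p = 0.0111) and against dHet (1.05, adjusted p = 0.00596), with 27.2 to 38.3 CPM in DKO, 16.6 to 21.7 CPM in Irx3KO, 20.5 to 21.8 CPM in Irx4KO and 14.7 to 18.9 CPM in dHet. The first of these calls was lost without DKO 3, DKO 4, Irx3KO 1 or Irx3KO 2 (up to 0.0753), the second without dHet 3 (0.0608), and each in a fit of its groups alone (0.0766 and 0.0697). Mef2c, a muscle activator, was at 117 to 126 CPM in DKO and 162 to 176 CPM in Irx3KO (-0.46 ± 0.10, adjusted p = 0.0469), and this call held without DKO 5, DKO 10 or WT 1 and was lost without each of the other 15 libraries (up to 0.238) and under 2 of 12 other settings. In Irx4 null against Irx4-bearing libraries Tbx2 (0.59) and Gata6 (0.19) rose and Mef2c (-0.35) fell, with adjusted p-values of 0.00715, 0.0212 and 0.0212. The Gata6 call was lost without Irx3KO 1, 2 or 4, Irx4KO 2, 3 or 4, or dHet 4 (up to 0.0727) and with no set term (0.0671), and the Mef2c call without DKO 4, Irx3KO 1, 2 or 4, Irx4KO 3 or 4, or dHet 4 (up to 0.0695). Gata4 and Nkx2-5, which act with Tbx5 on Nppa, did not pass in DKO against WT (0.17, adjusted p = 0.164, and 0.42, adjusted p = 0.0506). Nkx2-5 was at 91.2 to 135 CPM in DKO and 81.8 to 86.6 CPM in WT, without overlap.

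In the comparison over both sets, chosen after the data were seen, 5 of the 20 rose and 0 fell in edgeR, beside 2.84% called over all genes. Tbx2 stood at 0.91 ± 0.09 (adjusted p = 4.46e-05), Tbx5 at 0.33 ± 0.05 (adjusted p = 0.00186) and Gata6 at 0.18 ± 0.03 (adjusted p = 0.00713), each called in all 26 alternatives. These calls use the same libraries as those within a set and are not separate observations. Nkx2-5 rose by 0.29 ± 0.07 (adjusted p = 0.0243), a call lost without DKO 2, DKO 4 or WT 1 (up to 0.0816). Hand2, a factor of the ventricular myocardium, rose by 0.17 ± 0.04 (adjusted p = 0.0399), a call that held without DKO 3, DKO 5, DKO 10, dHet 4 or WT 2 and was lost without each of the other 13 libraries and with counts rebuilt from TPM (0.052). Gata4 did not pass (0.11 ± 0.04, adjusted p = 0.102).

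The genes around Nppa and Nppb on chromosome 4 gave 0 calls by edgeR among 11 tested of 12, over the 10 comparisons, with 4 tests at an unadjusted p under 0.05 and 1 call by DESeq2. Markers of wall stretch, hypoxia and the foetal programme, 12 genes that often accompany Nppa and Nppb, gave 0 calls by edgeR. Of their 120 tests 20 had an unadjusted p under 0.05, with 4 calls by DESeq2 and 2 by limma-voom. Over all 16607 genes tested, 474 to 2287 had an unadjusted p under 0.05 in a comparison, and 0.0% to 1.44% were called. Beside shares this low, 0 calls is not a result about either list.

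The genes most like each member over the 18 libraries were named by the 5 highest Pearson correlations among 10894 genes, after each set's mean was taken off, and these values describe libraries that share genotype and depth. Nppb was most like Hspb3 (0.83), Ccn2 (0.83), Zdhhc13 (0.81), Asns (0.81) and Vmp1 (0.79). Ccn2, which encodes a secreted matrix protein, was at 67.5, 160 and 116 CPM in DKO 5, 7 and 10, against 137, 122 and 77.4 CPM in WT 1, 2 and 3, so it was lowest in the libraries where Nppb was lowest in both groups. Npr3 was most like Serpine2 (0.93), Furin (0.87), Rps6ka2 (0.86), Spg20 (0.86) and Col23a1 (0.83). Npr1 was most like Elmo1 (0.91), Tmem255a (0.89), Aplnr (0.89), Ushbp1 (0.87) and Cd109 (0.85), and Npr2 most like Calcoco1 (0.92), Agtrap (0.91), Hsd3b7 (0.90), Ip6k1 (0.90) and Zfp358 (0.89).

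Corin was most like Tmem71 (0.88), Zbtb18 (0.88), Ghr (0.88), Camk2d (0.87) and Rmi1 (0.86), and Nppa most like Grhl1 (0.78), Rgs6 (0.78), Cyb5a (0.77), Klhdc10 (0.76) and Sh3bp5 (0.76), the lowest such values of the members. For Nppc, at so few counts, the likeness has no weight and is not named. Between members the correlation was largest in size for Npr2 and Corin (-0.66), followed by Nppb and Npr3 (0.53), and Nppa with its processing gene Corin stood at -0.09.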

How the data were processed

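Ventricular polyA RNA was sequenced in 18 libraries, grouped by the sample titles. Per the file headers, the deposited tables are kallisto output with estimated counts and TPM per transcript. TPM, already scaled by the authors' tool for length and library total, was used for levels between genes. Kallisto 0.42.2 and mm9 are named in the submitters' processing notes. What transcript release was used, and whether counting was stranded, is not given in the sources used here, so reads of overlapping genes cannot be told apart.

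Transcripts were tied to genes by GENCODE M21 (78030 of 88943), and 6.42% to 6.77% of counts had no gene. Estimated counts were summed per gene and rounded. The test was that of edgeR 4.0.16 (R 4.3.3, robust quasi-likelihood test, TMM, filterByExpr) in 1 fit of 6 cells, genotype within set, with a common dispersion of 0.0207, Benjamini-Hochberg adjustment and a threshold of 0.05. The standard error is the log2 fold change divided by the square root of F, and the pseudocount of the fit is 0.125. CPM uses TMM factors. Called means an adjusted p under 0.05. Alternatives were RLE factors, DESeq2 1.42.0, limma 3.58.1 (voom with quality weights), other filters on low counts, counts rebuilt from TPM, removal of length trends, a Y-linked covariate, no set term, fewer libraries in the fit, the replicate number as a block, and leaving out each library. The script was tested on simulated counts.

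The members and lists were chosen with earlier results of these data known. The text names the members, the targeted genes, up to 4 called genes of a list (and, chosen after their values were seen, Furin, Gucy1a1, Gucy1b1, Gata4 and Nkx2-5) and the 5 genes most like a member with a mean of at least 5 CPM. All 7 members matched a RefSeq promoter.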

Additional observations from a re-analysis of the deposited data

How the results depend on the processing

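Members called changed from 0 to 1 in Irx3KO against Irx4KO under limma-voom (1) and in a fit of only these groups (1), in both cases Corin, and under DESeq2 in the added comparison over both sets (1, Nppa). With libraries left out 1 at a time it lay between 0 and 1 in the added comparison (Nppa without dHet 4) and in DKO of set 1 against DKO of set 2 (Npr2 without DKO 5), and stayed at 0 in the 10 planned comparisons. The cause was not tested. Counts of called genes over all genes moved more. DKO against WT gave 239 genes, with 16 (set 1 alone) to 595 (DESeq2) under other settings and 67 to 576 with libraries left out. DKO against Irx3KO gave 63 (36 to 284, and 15 to 143), DKO against Irx4KO 4 (1 to 26, and 1 to 6), DKO against dHet 15 (11 to 317, and 4 to 102) and Irx3KO against Irx4KO 48 (14 to 738, and 12 to 119). Irx3KO against dHet gave 1 (1 to 12, and 1 to 2), Irx4KO against dHet 2 (1 to 32, and 0 to 6), Irx3 null 4 (2 to 56, and 2 to 19), Irx4 null 135 (113 to 437, and 56 to 313), the interaction 0 (0 to 7, and 0 to 1), DKO of set 1 against set 2 3119 (1549 to 3804, and 1693 to 3876) and the added comparison 472 (343 to 1003, and 198 to 1080). The replicate numbers did not pair libraries of set 2, where deviations of 15 same-numbered pairs correlated at -0.19 to 0.082 and those of 39 other pairs at -0.186 to 0.239. With the number as a block, 0 members and 14 genes were called in Irx3KO against Irx4KO, and the call of Pcsk6 in Irx4 null libraries was lost (log2 fold change -0.36). In set 1 no paired analysis was possible, because DKO and WT share no numbers there. TPM in place of CPM moved 9 ratios of mean levels of Npr1 and Npr2 by more than the spread between libraries, for DKO against Irx4KO to -0.29 and 0.23 (log2). Depth limits Nppc, at 2 to 16 counts a library.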
